A study of Mus musculus with 3 samples.

Results

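The genes described here are the mouse immunoglobulin heavy variable genes, taken as every feature row whose symbol begins with Ighv. There were 185 such rows among 32285 in the count tables. An antibody heavy chain gene is assembled in each developing B cell by joining 1 variable (V) segment, 1 diversity segment and 1 joining (J) segment, and the joined exon is spliced to a constant gene such as Ighm or Igha. The V segment encodes most of the antigen-facing part of the heavy chain. Because 1 allele is normally expressed per cell, cells of the same B cell lineage normally show the same V gene. Unrelated lineages can also use the same V gene, so a V gene alone does not identify a lineage. Ighm and Ighd mark B cells that have not switched class, whereas Igha and the Ighg genes mark switched cells, and plasma cells secrete the product.

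Cells of the mesenteric lymph nodes, the nodes of the gut, were profiled as 3 single-cell RNA libraries, 1 per feeding group, each from the pooled nodes of 6 animals. All groups were dosed by mouth over 4 weeks. The citrate buffer group, titled an untreated control, received 5 mM citrate, the free OVA group received ovalbumin titled 1 µg, and the LysoPS-OVA group received ovalbumin, also titled 1 µg, with lyso-phosphatidylserine nanoparticles. The sources used here do not give strain, sex or age, and the tissue digest was depleted of dead cells before droplet capture. With 1 pool per feeding, no spread between animals can be estimated, no difference was tested, and feeding cannot be told apart from animal pool or library. All 95% intervals cover counting error only: exact binomial for shares, exact Poisson for summed counts and Katz's log interval for a ratio of shares.

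After filters on quality and doublets, 21993 barcodes (droplets taken as cells) were kept in citrate buffer, 21603 with free OVA and 15929 with LysoPS-OVA. Each number is above the 10000 cells stated as loaded per library, and how many barcodes are single cells was not tested. Between 98 and 119 kept barcode sequences were shared by each pair of libraries. B barcodes had at least 1 UMI (a counted transcript molecule) of Cd79a and of Ms4a1 and under 5 of Jchain, the joining chain of secreted antibody. They numbered 5651 in citrate buffer, 4964 with free OVA and 5898 with LysoPS-OVA, with median depths of 3801, 5427 and 4536 UMIs. Markers that the rule did not use were seen in them: Pax5, the B lineage regulator, in 77.5%, 84.8% and 89.0%, and Cd79b, a signalling chain of the B cell receptor, in 83.0%, 87.8% and 93.7%. The T cell gene Cd3e had a UMI in 15.6% of citrate buffer B barcodes, 5.86% of free OVA ones and 9.22% of LysoPS-OVA ones, and Ighv values without those barcodes are given with Ighv3-2. The summed level of 7 T cell markers in B barcodes was 468, 164 and 230 CPM (UMIs scaled to a common library total), against 3663 to 3871 in T barcodes.

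Barcodes with at least 5 Jchain, 2 Xbp1 and 2 Mzb1 UMIs were chosen as plasma barcodes, but most of them also had B cell and cycling transcripts. There were 37 in citrate buffer, 40 with free OVA and 24 with LysoPS-OVA. Ms4a1, a surface protein that plasma cells lose, was seen in 29, 25 and 20 of them, and the cycling gene Mki67 in 31, 24 and 17. Sdc1, a defining plasma cell surface protein, was seen in only 5, 12 and 3. They are therefore called Jchain-high barcodes here.

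The 185 rows lie on chromosome 12 between 113572927 and 116010093 (GRCm38), and 183 of them are on the minus strand. By annotation 113 are V genes, 70 are pseudogenes and 2 are IG_LV_gene models, in 16 families named by the number before the hyphen. At least 1 UMI was counted for 135 rows in the deposited barcodes, namely 108 of the V genes and 27 pseudogenes. The 5 V genes with no UMI in any library were Ighv16-1, Ighv1-16, Ighv1-24, Ighv1-62-2 and Ighv8-9. For Ighv1-62-2, 90.7% of the 90-base windows of its transcript (the length of the RNA read) also occur in another Ighv transcript, and for Ighv1-71, with 1 UMI in all, 97.0% do. Among the V genes, 61 of 113 had no window in common with another row. Where counting could divide reads between near-identical copies the value of a single gene is uncertain, and this holds for Ighv2-2 (30.4% of windows shared), Ighv1-72 (52.8%), Ighv8-8 (12.6%) and Ighv1-26 (11.5%).

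In 4 pairs of relatives, 1 gene differed between libraries and the other did not differ the same way, and the 3′ ends of these V segments are printed to show how much sequence separates them. The pairs were chosen after the values were seen, and other relatives, such as Ighv7-1 and Ighv7-2 or Ighv10-1 and Ighv10-3, differed the same way. Each line gives the last 90 bases of the annotated V segment, read 5′ to 3′ on the minus strand from GENCODE M21 transcripts, with capitals where the pair differs in a pairwise alignment. The stretch is exonic and ends where the V segment joins the diversity segment.
Ighv3-2, chr12:114033803-114033892: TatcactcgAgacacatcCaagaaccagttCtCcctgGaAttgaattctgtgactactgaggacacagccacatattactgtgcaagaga
Ighv3-6, chr12:114288152-114288241: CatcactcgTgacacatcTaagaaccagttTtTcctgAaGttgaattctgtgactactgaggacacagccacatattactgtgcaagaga
Ighv8-11, chr12:115567149-115567238: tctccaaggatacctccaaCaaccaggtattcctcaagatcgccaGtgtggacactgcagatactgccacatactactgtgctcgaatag
Ighv8-8, chr12:115294062-115294151: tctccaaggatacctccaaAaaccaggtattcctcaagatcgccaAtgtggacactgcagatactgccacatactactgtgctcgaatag
Ighv5-16, chr12:113838526-113838615: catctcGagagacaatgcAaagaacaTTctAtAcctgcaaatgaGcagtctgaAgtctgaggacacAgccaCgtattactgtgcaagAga
Ighv5-17, chr12:113859149-113859238: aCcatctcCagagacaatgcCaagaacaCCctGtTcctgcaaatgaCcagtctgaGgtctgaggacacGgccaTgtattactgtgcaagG
Ighv1-81, chr12:115920279-115920368: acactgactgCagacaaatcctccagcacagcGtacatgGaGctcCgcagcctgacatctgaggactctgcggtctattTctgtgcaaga
Ighv1-64, chr12:115507545-115507634: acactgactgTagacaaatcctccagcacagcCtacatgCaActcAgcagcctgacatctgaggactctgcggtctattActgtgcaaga

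Over the whole aligned transcript, Ighv3-2 and Ighv3-6 were identical at 91.7% of 349 bases, Ighv8-11 and Ighv8-8 at 96.1% of 358, Ighv5-16 and Ighv5-17 at 83.9% of 378, and Ighv1-81 and Ighv1-64 at 85.8% of 351. In the printed stretch the first pair differed at 7 bases, the second at 2 and the fourth at 6. The Ighv5-16 and Ighv5-17 segments end at slightly different aligned bases, so 11 capitals fall in one stretch and 12 in the other. Neither Ighv3-2 nor Ighv3-6 shared a 90-base window with any other Ighv transcript. The protocol used 3′ chemistry, and where along the transcript the counted V reads lay is not given in the sources used here.

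Ighv transcripts were sparse, and B barcodes held 80.9% of the kept Ighv UMIs in citrate buffer, 83.5% with free OVA and 89.1% with LysoPS-OVA. An Ighv UMI was seen in 1017 of 5651 B barcodes in citrate buffer (18.0%, 95% interval 17.0 to 19.0), 1511 of 4964 with free OVA (30.4%, 29.2 to 31.7) and 1303 of 5898 with LysoPS-OVA (22.1%, 21.04 to 23.2). T barcodes (Cd3e seen and no Cd79a, Ms4a1 or Jchain), which should lack the transcript, had one in 0.633%, 0.279% and 0.345%, at median depths of 3786, 5419 and 5103 UMIs. That rule leaves out T barcodes with stray Cd79a, Ms4a1 or Jchain, so these shares may understate stray Ighv UMIs. When B barcodes were thinned to 1000 UMIs, which left out 39, 149 and 30 shallower ones, the expected shares were 4.89%, 7.10% and 5.17%, so free OVA stayed highest. The summed Ighv level in B barcodes was 56.3 CPM (53.4 to 59.4) in citrate buffer, 82.6 CPM (79.2 to 86.1) with free OVA and 57.2 CPM (54.5 to 59.9) with LysoPS-OVA. Set against the constant genes, this was 2.35, 3.12 and 2.09 Ighv UMIs per 100 heavy constant UMIs.

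A B barcode was assigned to its top Ighv gene, the one with most UMIs, and ties were left out. This gave 962 assigned barcodes in citrate buffer, 1415 with free OVA and 1213 with LysoPS-OVA, so a gene with no barcode has a share of up to 0.312%, 0.212% and 0.247%, taking 3 barcodes as the limit that a count of 0 allows. Most assignments rested on 1 UMI: 80.9%, 70.6% and 83.5% of them. More than 1 Ighv gene was seen in 6.88%, 8.14% and 9.59% of the B barcodes with any, compared with 8.43%, 8.65% and 10.2% in B barcodes called as doublets.

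Usage was spread widely. In all, 129 rows were the top gene of some B barcode, and 92 were seen in every library. The largest family, Ighv1 (93 rows), took 45.6% (42.5 to 48.8) of assigned B barcodes in citrate buffer, 49.7% (47.0 to 52.3) with free OVA and 44.3% (41.5 to 47.1) with LysoPS-OVA. Of the other large families, Ighv5 held 10.6%, 11.4% and 8.90%, Ighv3 held 9.98%, 9.61% and 13.0%, Ighv2 held 8.42%, 9.12% and 11.1%, and Ighv8 held 5.61%, 4.10% and 8.33%. Family Ighv10 was lowest in LysoPS-OVA, with 15, 22 and 2 barcodes (1.56%, 1.55% and 0.165%), and family Ighv13 had 8, 12 and 1. Family Ighv7 held 3.22%, 1.63% and 3.22%, and family Ighv6 held 4.37%, 3.18% and 2.39%. Ighv9, Ighv14 and Ighv4 each held 1.55% to 3.85% in every library, and Ighv11, Ighv12, Ighv15 and Ighv16 had at most 10 barcodes in any.

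The LysoPS-OVA library used fewer genes more heavily. The chance that 2 assigned B barcodes share their top gene, whose expectation does not depend on how many barcodes were drawn, was 1.54% in citrate buffer, 1.78% with free OVA and 2.64% with LysoPS-OVA. Its inverse, the effective number of equally used genes, was 64.7, 56.2 and 37.9. The 5 most used genes held 16.3%, 19.3% and 28.2% of barcodes, and it took 23, 21 and 14 genes to reach 50% of them. At an equal draw of 962 barcodes, 113 genes were seen in citrate buffer, 105 expected with free OVA and 101 with LysoPS-OVA, so the number of genes differed less than their evenness. With Ighv3-2 left out, the effective number in LysoPS-OVA was 41.4, against 63.8 and 55.2.

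**Figure D1:**
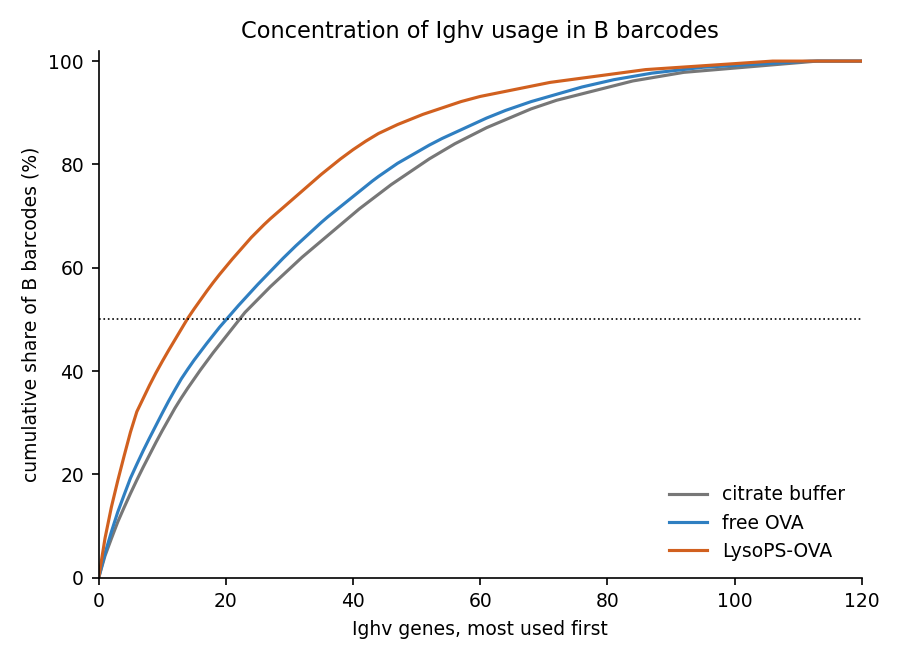
Cumulative share of assigned B barcodes (%, vertical axis) over Ighv genes ordered from most to least used within each library (horizontal axis), 1 line per feeding, with a dotted line at 50%. The LysoPS-OVA line runs above the others and reaches 50% at 14 genes, compared with 21 in free OVA and 23 in citrate buffer.

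The 8 genes with the highest mean share over the libraries were Ighv2-2, Ighv1-64, Ighv5-17, Ighv3-2, Ighv3-6, Ighv1-9, Ighv9-3 and Ighv8-11. Ighv2-2, the leading gene, was the top gene of 27 B barcodes in citrate buffer (2.81%, 1.86 to 4.06), 59 with free OVA (4.17%, 3.19 to 5.35) and 73 with LysoPS-OVA (6.02%, 4.75 to 7.51). Its interval with LysoPS-OVA lay above that in citrate buffer and overlapped that with free OVA. The interval of its ratio lay above 1 in LysoPS-OVA against citrate buffer (2.14-fold, 1.39 to 3.31) and narrowly against free OVA (1.44-fold, 1.03 to 2.02). Ighv1-64 held 3.22%, 3.25% and 5.11%, and Ighv5-17 held 2.70%, 3.82% and 4.78%. Ighv1-9 held 2.49%, 2.61% and 3.96%, and Ighv9-3 went the other way with 3.33%, 2.40% and 2.23%. The intervals of these 4 genes overlapped across all libraries, but the interval of the ratio lay above 1 for Ighv1-64 in LysoPS-OVA against citrate buffer (1.59-fold, 1.04 to 2.42) and free OVA (1.57-fold, 1.08 to 2.28) and for Ighv5-17 against citrate buffer (1.77-fold, 1.12 to 2.79).

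Ighv3-2, annotated as a pseudogene, was the most used gene with LysoPS-OVA and ranked 33rd in citrate buffer and 12th with free OVA. It was the top gene of 10 citrate buffer B barcodes (1.04%, 0.50 to 1.90), 31 free OVA ones (2.19%, 1.49 to 3.10) and 93 LysoPS-OVA ones (7.67%, 6.23 to 9.31). The LysoPS-OVA interval stood clear of both others, which overlapped each other. The share with LysoPS-OVA was 7.38-fold that in citrate buffer (3.86 to 14.1) and 3.50-fold that with free OVA (2.35 to 5.22). Without the B barcodes that had a Cd3e UMI, an alternative added after the values were seen, the 3 shares were 1.09%, 2.30% and 7.56%. The close relative Ighv3-6, whose 3′ end is printed beneath it, was lowest in LysoPS-OVA. Ighv3-6 led in citrate buffer (41 barcodes, 4.26%, 3.08 to 5.74) and with free OVA (67, 4.73%, 3.69 to 5.98) and had 13 barcodes with LysoPS-OVA (1.07%, 0.572 to 1.83). In LysoPS-OVA this was 0.251-fold citrate buffer (0.136 to 0.467) and 0.226-fold free OVA (0.126 to 0.408).

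Ighv8-11 followed Ighv3-2, with 17 barcodes in citrate buffer (1.77%, 1.03 to 2.81), 14 with free OVA (0.989%, 0.542 to 1.65) and 56 with LysoPS-OVA (4.62%, 3.51 to 5.95). Its near-identical relative Ighv8-8 had 15, 23 and 11 barcodes (1.56%, 1.63% and 0.907%), with overlapping intervals. In LysoPS-OVA, 4 B barcodes had UMIs of both genes, among 16 with Ighv8-8 and 65 with Ighv8-11. Ighv3-1 and Ighv3-2 were together in 5 (35 and 108 with each), and Ighv1-53 and Ighv1-64 in 8 (17 and 77). Whether reads of 1 chain were divided between relatives was not tested. Ighv1-81 was almost missing from LysoPS-OVA: 15, 38 and 2 barcodes, or 1.56% (0.875 to 2.56), 2.69% (1.91 to 3.67) and 0.165% (0.0200 to 0.594). Ighv5-16 had 16, 16 and 2 barcodes (1.66%, 1.13% and 0.165%), while Ighv5-17 was no lower in LysoPS-OVA than elsewhere.

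**Figure D2:**
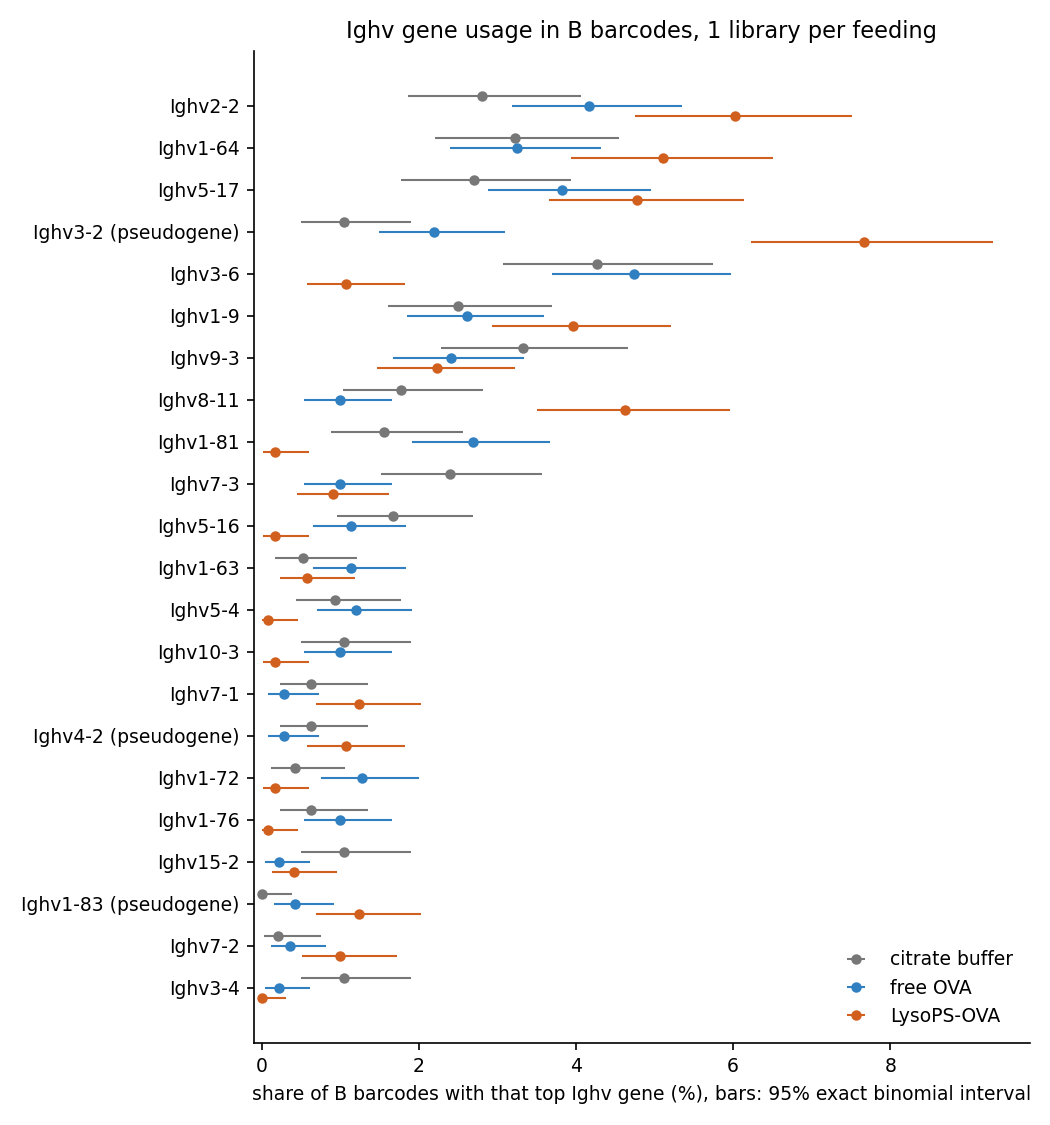
Share of assigned B barcodes with each named gene as top Ighv gene (%, horizontal axis) in the 3 libraries, with bars for 95% exact binomial intervals, ordered by mean share from the top. Ighv3-2 and Ighv8-11 in LysoPS-OVA lie to the right of both other libraries, and Ighv3-6, Ighv1-81 and Ighv5-16 to the left.

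Each pair of libraries was then compared gene by gene over the Ighv genes with at least 10 barcodes in the higher library, and a gene was counted when its share differed by at least 2-fold. For LysoPS-OVA against citrate buffer 18 of 50 genes were past 2-fold (36%), 8 higher (16%) and 10 lower (20%). For free OVA against citrate buffer it was 8 of 54 (14.8%), 4 higher and 4 lower (7.41% each). For LysoPS-OVA against free OVA it was 25 of 59 (42.4%), 10 higher (16.9%) and 15 lower (25.4%). The 95% intervals, not adjusted for the number of genes, lay above 1 for 8 genes and below 1 for 8 in the first pair, for 4 and 4 in the second and for 12 and 13 in the third. The pairs share libraries, so their counts are not independent. A gene could enter through the library where it was higher, which favours large ratios. The counts and intervals are those of this selected set, and its effect on them was not tested.

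**Figure D3:**
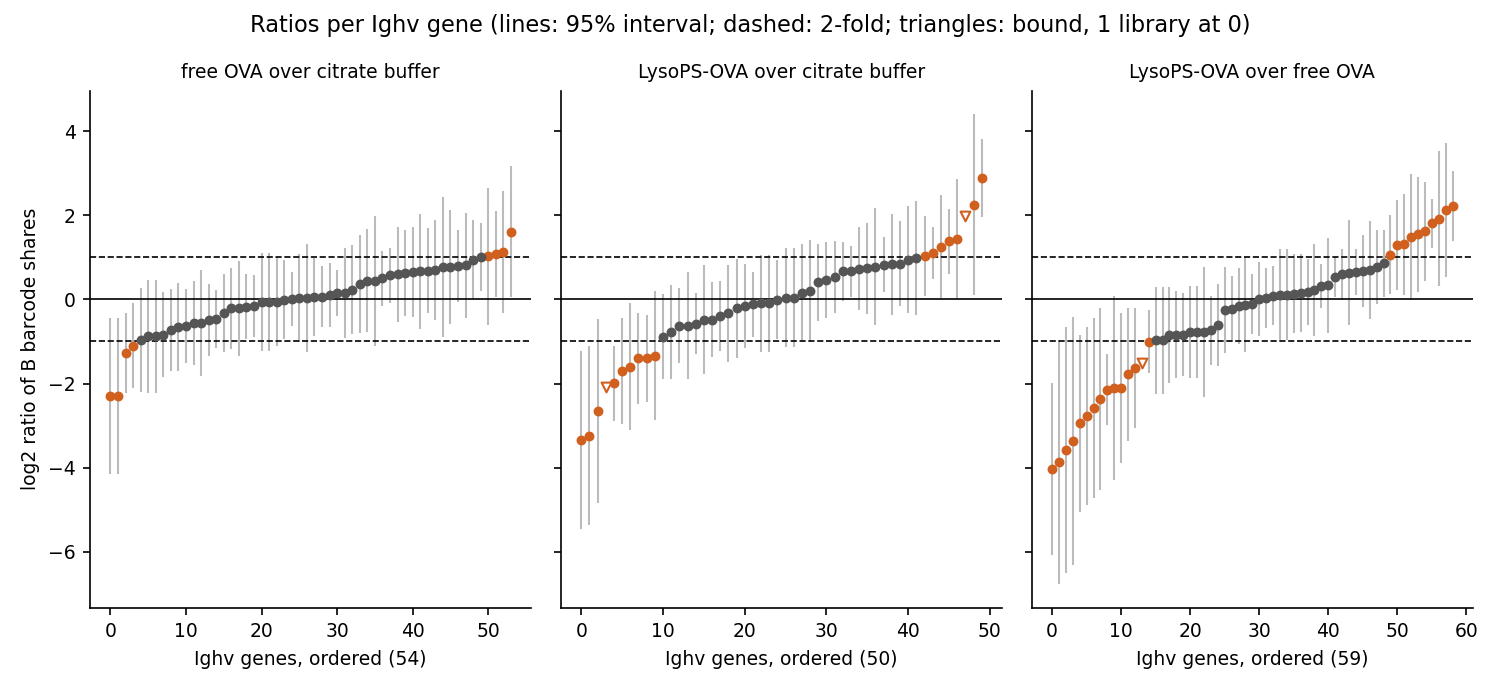
Log2 ratio of B barcode shares (vertical axis) for each Ighv gene with at least 10 barcodes in the higher library, ordered within each of the 3 pairs of libraries (horizontal axis), with lines for 95% intervals, dashed lines at 2-fold and triangles for bounds where 1 library had no barcode. Orange points, past 2-fold, number 8 of 54 in the free OVA to citrate buffer panel and 18 of 50 and 25 of 59 in the panels with LysoPS-OVA.

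Among genes higher in LysoPS-OVA than in citrate buffer, the largest ratios after Ighv3-2 were those of Ighv7-2 and Ighv1-83. Ighv7-2 had 2, 5 and 12 barcodes (citrate buffer, then free OVA, then LysoPS-OVA), and its LysoPS-OVA share was 4.76-fold that in citrate buffer (1.07 to 21.2). Ighv1-83, annotated as a pseudogene, had 0, 6 and 15 barcodes, and its share was at least 3.97-fold higher than in citrate buffer, taking 3 barcodes as the floor there. The lowest ratios were those of Ighv5-16 (0.0991-fold, 0.0228 to 0.430), Ighv1-81 (0.106-fold, 0.0242 to 0.461) and Ighv10-3, which had 10, 14 and 2 barcodes (0.159-fold, 0.0348 to 0.722). Ighv3-4 had 10, 3 and 0 barcodes, so its share in LysoPS-OVA was at most 0.238-fold that in citrate buffer.

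Against free OVA, the highest LysoPS-OVA ratios were those of Ighv8-11 (4.67-fold, 2.61 to 8.34), Ighv7-1 (6, 4 and 15 barcodes, 4.37-fold, 1.46 to 13.1) and the annotated pseudogene Ighv4-2 (6, 4 and 13 barcodes, 3.79-fold, 1.24 to 11.6). The lowest were Ighv1-81 (0.0614-fold, 0.0148 to 0.254), Ighv5-4 (9, 17 and 1 barcodes, 0.0686-fold, 0.00915 to 0.515) and Ighv1-76 (6, 14 and 1 barcodes, 0.0833-fold, 0.0110 to 0.633). All 3 of these were also lower in LysoPS-OVA than in citrate buffer by count, though Ighv5-4 and Ighv1-76 had under 10 barcodes in both of those libraries.

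The fewest genes were past 2-fold between free OVA and citrate buffer under this rule. Ighv1-72 was higher in free OVA with 4, 18 and 2 barcodes (3.06-fold, 1.04 to 9.01), as were Ighv1-63 with 5, 16 and 7 (2.18-fold, 0.80 to 5.92) and Ighv3-2 (2.11-fold, 1.04 to 4.28). With every deposited barcode kept, the ratio was 1.70-fold for Ighv1-63 and 1.39-fold for Ighv3-2. Ighv3-4 and Ighv15-2 were lower in free OVA, each with 10 barcodes in citrate buffer and 3 in free OVA (0.204-fold, 0.0563 to 0.739). Ighv7-3 had 23, 14 and 11 barcodes, and its free OVA share was 0.414-fold that in citrate buffer (0.214 to 0.80).

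Counted as expression in all B barcodes, single Ighv genes were low. None of them reached 50 CPM, the minimum used for all genes, at which 0.661% of 3478 genes were past 2-fold for LysoPS-OVA against citrate buffer, 0.928% of 3449 for free OVA against citrate buffer and 0.178% of 3367 for LysoPS-OVA against free OVA. With a pseudocount of 1 CPM and a minimum of 30 UMIs only, an alternative added after the values were seen, 1 of 19 Ighv genes was past 2-fold in the first pair, where 2.87% of all genes were. The second pair had 0 of 23 (2.69% of all genes) and the third 4 of 28 (0.57% of all genes). These are differences in CPM, whereas the counts above are differences in share among the Ighv genes.

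Position along the locus was not used to choose the genes. The 185 rows were divided by order into 4 stretches of 46 or 47 rows. The stretch nearest the J segments (positions 113572927 to 114094358) held 27.1% of B barcodes in citrate buffer (24.3 to 30.1), 29.0% with free OVA (26.6 to 31.4) and 36.9% with LysoPS-OVA (34.2 to 39.7). The second held 31.2%, 25.7% and 20.8%. The third held 15.8%, 17.5% and 12.2% and the farthest 25.9%, 27.8% and 30.1%. Ighv3-2, Ighv2-2 and Ighv5-17 lie in the first stretch, Ighv3-6 and Ighv9-3 in the second, and Ighv8-11, Ighv1-64 and Ighv1-81 in the fourth. Ighv5-16 lies in the first stretch with Ighv5-17, and Ighv8-8 in the fourth with Ighv8-11, so genes of 1 stretch did not all go the same way.

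**Figure D4:**
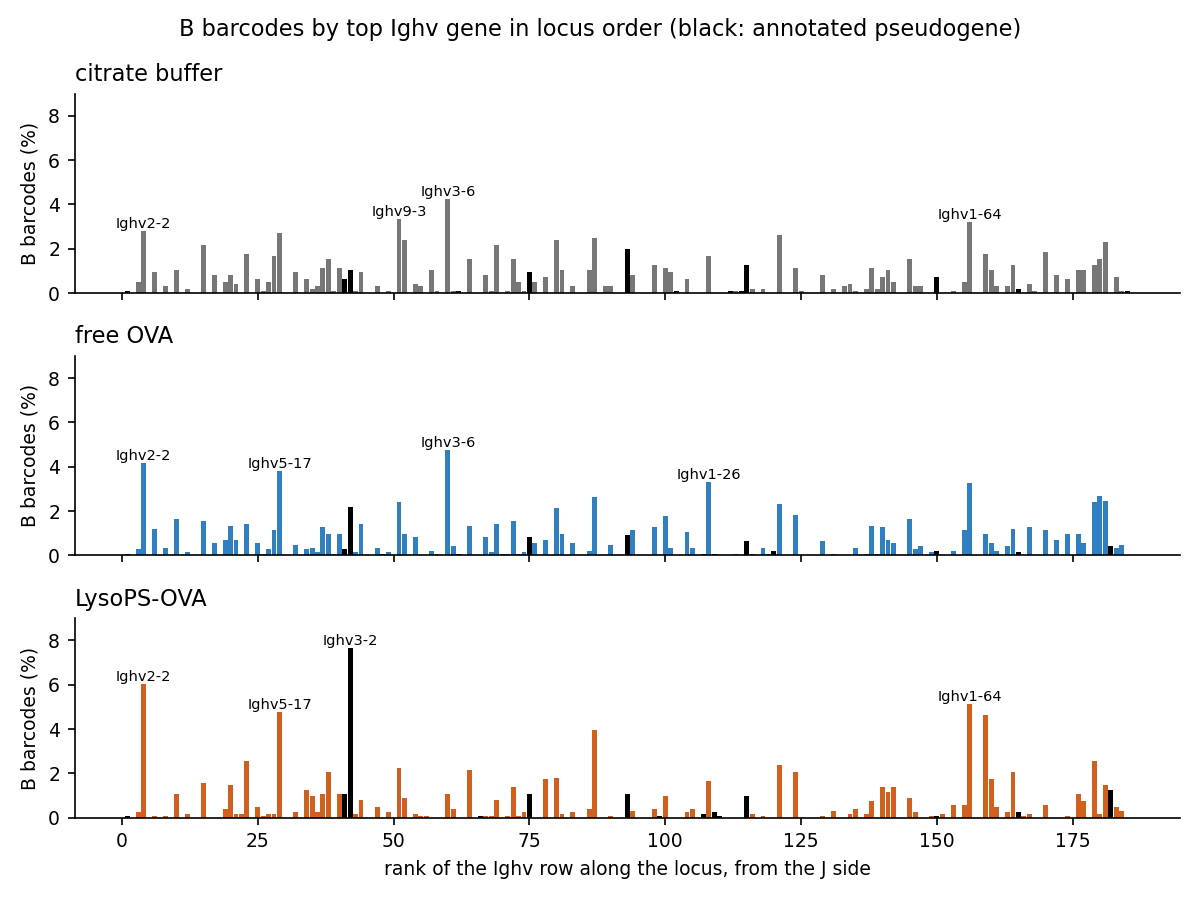
Share of assigned B barcodes (%, vertical axis) for all 185 Ighv rows in their order along the locus from the J side (horizontal axis), 1 panel per library, with annotated pseudogenes in black and the 4 most used genes named. Usage is spread over the whole locus in every library, and the tallest bar with LysoPS-OVA is Ighv3-2 at 7.67%.

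Rows not annotated as V genes held 7.38% of assigned B barcodes in citrate buffer (5.81 to 9.22), 6.22% with free OVA (5.02 to 7.61) and 14.2% with LysoPS-OVA (12.3 to 16.3). Without Ighv3-2 the shares were 6.41%, 4.12% and 7.05%. There were 7 such rows with at least 10 B barcodes over the libraries, and RefSeq lists 2 of them, Ighv1-14 and Ighv1-83, as V segments and not as pseudogenes. Read from the first ATG of its transcript model, Ighv3-2 has its first in-frame stop codon at base 301 of 349, within the stretch printed above. The tga read there is also printed in the Ighv3-6 stretch. The Ighv3-2 model has 349 bases and that of Ighv3-6 has 350, and they align in 2 blocks. Whether the frame shifts ahead of base 301 was not tested, so this position does not show how far the V frame runs. The first in-frame stop was at base 265 of 350 in Ighv1-33, 205 of 362 in Ighv4-2 and 166 of 350 in Ighv1-62. It was at base 64 of 402 in Ighv1-14, 58 of 351 in Ighv1-83 and 376 of 378 in Ighv1-2. Ighv1-14 held 19, 13 and 13 barcodes, Ighv1-33 held 12, 9 and 12, and Ighv1-2 held 9, 12 and 13, so none of these 3 rows was past 2-fold in LysoPS-OVA against either other library. Ighv1-62 went the other way with 7, 3 and 1 barcodes, and Ighv4-2 was past 2-fold against free OVA but not against citrate buffer (1.72-fold, 0.656 to 4.50).

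The assigned B barcodes were then split by their top constant gene. With either unswitched gene on top, LysoPS-OVA was the highest library for Ighv3-2 and Ighv8-11 and the lowest for Ighv3-6. These are parts of the same barcodes in which the genes were picked, so they are no repeat. Among Ighm-top barcodes, Ighv3-2 held 2 of 396 (0.505%) in citrate buffer, 14 of 504 (2.78%) with free OVA and 28 of 533 (5.25%) with LysoPS-OVA. Among Ighd-top barcodes it held 7 of 456 (1.54%), 16 of 793 (2.02%) and 55 of 582 (9.45%). Ighv3-6 held 5.30%, 5.56% and 0.938% of Ighm-top barcodes and 3.29%, 4.29% and 1.37% of Ighd-top ones. Ighv8-11 held 1.26%, 0.992% and 5.25% of the Ighm-top and 2.19%, 1.01% and 4.30% of the Ighd-top barcodes. Ighv1-81 held 1.77%, 1.19% and 0.188% of Ighm-top and 1.54%, 3.66% and 0.172% of Ighd-top barcodes, so LysoPS-OVA was lowest in both while citrate buffer and free OVA changed places. Ighv5-16 held 2.02%, 0.397% and 0% of Ighm-top and 1.32%, 1.64% and 0.344% of Ighd-top barcodes, with the same change of places. The leading gene was Ighv3-6 in Ighm-top and Ighv1-64 in Ighd-top barcodes of citrate buffer, Ighv2-2 and Ighv3-6 in those of free OVA, and Ighv2-2 and Ighv3-2 in those of LysoPS-OVA.

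B barcodes with a switched constant gene on top carried few Ighv UMIs. Igha was the top constant gene in 53, 53 and 41 B barcodes, of which 2, 2 and 3 had an Ighv UMI, and Ighg genes were on top in 103, 123 and 77, of which 5, 6 and 3 did. Their median counts of the top constant class were only 1 to 7 UMIs, against 6 to 10 in Ighm-top and Ighd-top barcodes. T barcodes also had Igha on top, in 245 of 4108, 109 of 2512 and 87 of 3765, at a median of 1 UMI. A top gene at such counts does not show that a barcode is a switched B cell. No switched class reached 30 assigned B barcodes, so usage by switched isotype is not given for B barcodes.

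The light chains of the barcodes behind the Ighv3-2 value were tabulated after the values were seen. Of the 93 LysoPS-OVA barcodes, only 22 had a single top light chain variable gene, and these named 14 different genes. The chance that 2 such barcodes share their light gene was 6.49%, against 5.34% over all assigned LysoPS-OVA B barcodes. How many lineages the 93 hold was not tested. The most common was Igkv6-20 in 5 of 22 (22.7%, 7.82 to 45.4), which was also the most common over all assigned LysoPS-OVA B barcodes, in 44 of 340 (12.9%, 9.56 to 17.0). A single UMI supported 80.6% of the 93, their median depth was 5115 UMIs, and 1 of them had Mki67. For Ighv8-11 in LysoPS-OVA 18 barcodes named 13 light genes, and for Ighv2-2 21 named 15.

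Ighv UMIs in the deposited barcodes outside the B and Jchain-high classes, which include barcodes removed by the filters, gave a partly different order. There were 815 of them in citrate buffer, 656 with free OVA and 399 with LysoPS-OVA. Ighv3-2 made up 2.94% (1.90 to 4.35), 0.915% (0.336 to 1.98) and 6.77% (4.51 to 9.69), so LysoPS-OVA was again highest but citrate buffer was above free OVA. Ighv3-6 made up 3.44%, 4.88% and 0.501%, Ighv8-11 1.35%, 1.22% and 4.01%, and Ighv1-81 1.35%, 1.83% and 0%. Some other named genes, on few UMIs, did not keep the order of B barcodes. Ighv3-4 made up 1.47%, 2.74% and 0.251%, so free OVA was above citrate buffer. Ighv7-1 made up 0.613%, 1.52% and 0.752%, highest with free OVA. Ighv10-3 made up 0.613%, 0.457% and 0.752%, highest with LysoPS-OVA. These barcodes come from the same 3 pools and are no replicate of the feeding.

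In Jchain-high barcodes nearly every assigned barcode had its own Ighv gene. An Ighv UMI was seen in 12 of 37 in citrate buffer (32.4%, 18.0 to 49.8), 25 of 40 with free OVA (62.5%, 45.8 to 77.3) and 10 of 24 with LysoPS-OVA (41.7%, 22.1 to 63.4). The summed Ighv level was 146 CPM (113 to 186), 283 CPM (243 to 327) and 240 CPM (194 to 294), higher than in B barcodes of the same library in 3 of 3 libraries. Per 100 heavy constant UMIs it was 0.957, 1.10 and 2.01, against 2.35, 3.12 and 2.09 in B barcodes. It was thus lower in citrate buffer and free OVA and nearly equal in LysoPS-OVA. The 12 assigned barcodes of citrate buffer named 12 genes, the 19 of free OVA 17 and the 10 of LysoPS-OVA 10. Ighv1-81 had the highest mean share, with 1, 2 and 1 barcodes, and a gene with no barcode has a share of up to 25%, 15.8% and 30% at this depth.

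The Ighv1 family held 8 of 12 assigned Jchain-high barcodes in citrate buffer (66.7%, 34.9 to 90.1), 8 of 19 with free OVA (42.1%, 20.3 to 66.5) and 4 of 10 with LysoPS-OVA (40%, 12.2 to 73.8). These intervals span the B barcode shares of the same libraries. The 20 most used genes of B barcodes, which held 46.7%, 49.9% and 60.2% of B barcodes, were on top in 3 of 12, 9 of 19 and 5 of 10 Jchain-high barcodes. No Ighv gene had 10 barcodes in this class, so neither ratios between libraries nor ratios to B barcodes by gene are given.

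Most Ighv UMIs of this class came from a few barcodes. In LysoPS-OVA an Ighg2c barcode with 28 Ighv1-26 UMIs among 39 Ighv UMIs made up 42.4% of the class total of 92, and an Ighg2b barcode with 18 Ighv1-19 UMIs among 31 made up 33.7%. Both also had UMIs of other Ighv1 genes, in the first case Ighv1-19, Ighv1-21 and Ighv1-33. In free OVA the deepest were an Ighg2c barcode with 25 Ighv1-42 UMIs and Igha barcodes with 21 of Ighv1-53, 22 of Ighv7-3 and 18 of Ighv1-66. In citrate buffer an Ighm barcode held 21 Ighv10-3 UMIs and another 12 Ighv1-76 UMIs. Because of these barcodes, the Ighv1 share of LysoPS-OVA Jchain-high barcodes was 40% when each barcode counted once and 83.7% when UMIs were summed.

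**Figure D5:**
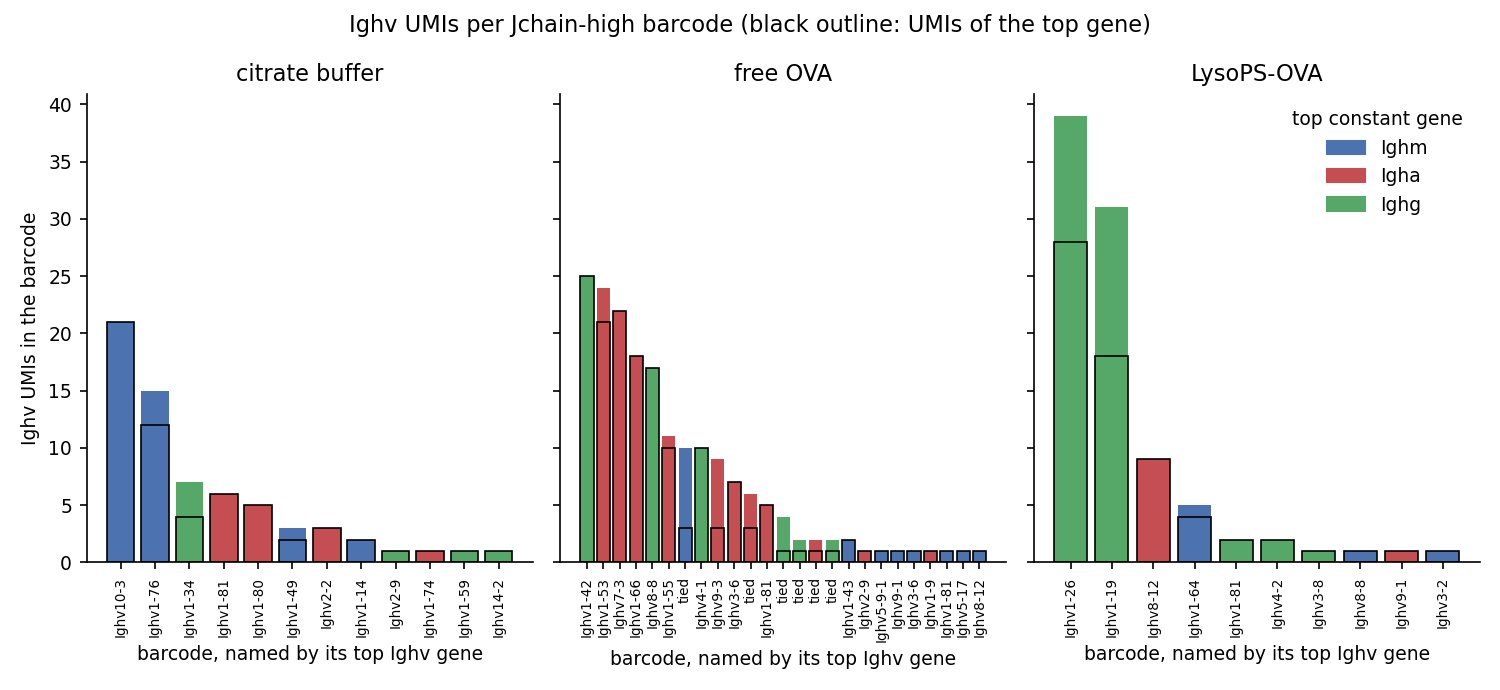
Ighv UMIs (vertical axis) in each Jchain-high barcode with any, named by its top Ighv gene (horizontal axis), 1 panel per library, coloured by the class of its top constant gene, with black outlines for the UMIs of the top gene alone. A few barcodes hold most UMIs, up to 39 in 1 LysoPS-OVA barcode, and nearly every barcode has a different gene.

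Other genes of heavy chain assembly, transcription and secretion were compared in B barcodes by summed counts, as log2 differences with a pseudocount of 1 CPM and at least 30 UMIs in the higher library. The shares of all genes past 2-fold by that rule are those given above for the CPM alternative. Of 3 recombination genes, Rag1, Rag2 and Dntt, none had enough UMIs in any library. Pou2f1, Pou2f2 and Pou2af1, which encode the octamer factors and coactivator known to act on immunoglobulin promoters, were all within 2-fold in each pair.

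Of 8 heavy constant genes, Ighe had too few UMIs and 2 were past 2-fold in each comparison with citrate buffer. Ighm stood at 1169, 1214 and 1339 CPM and Ighd at 1081, 1326 and 1290 CPM, within 2-fold in all pairs. Igha, the mucosal isotype, was highest in citrate buffer at 64.4, 27.6 and 26.9 CPM (log2 differences of -1.19 and -1.23). T barcodes also had Igha on top most often in citrate buffer, as given above, and the part of stray transcript was not tested. Ighg2b was past 2-fold for LysoPS-OVA (log2 -1.19) and Ighg2c for free OVA (log2 -1.14). None of the heavy constant genes was past 2-fold between LysoPS-OVA and free OVA. Of 8 secretion genes, Jchain, which the barcode rule used, had log2 differences of -1.03 in free OVA and -1.11 in LysoPS-OVA, and Derl3, a gene of protein quality control in secretory cells, had -1.02 in LysoPS-OVA. The other 6, including Xbp1, Irf4 and Prdm1, were within 2-fold. B barcodes with a Cd3e UMI were most frequent in citrate buffer (15.6%), and their part in these differences was not tested.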

How the data were processed

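Values are the raw UMI counts per gene and barcode that the authors deposited, for which the submitters' processing notes name Cell Ranger 7.2.0 and mm10; the annotation and intron setting are not given in the sources used here. Libraries of 10000 loaded cells held 28927 (citrate buffer), 28660 (free OVA) and 20873 (LysoPS-OVA) barcodes and 96616683, 81559237 and 84089686 UMIs. Barcodes under 300 genes or over 10% mitochondrial UMIs were dropped. Scrublet (scanpy 1.11.5, expected rate 0.8% per 1000 barcodes) called 4355, 1728 and 1394 doublets, which were removed. Annotation and V sequences came from GENCODE M21 (GRCm38), joined by Ensembl identifier, and segments were aligned with Biopython 1.88. Tables used Python 3.11.15, numpy 2.4.6, scipy 1.17.1 and pandas 2.3.3, and plots matplotlib 3.10.9. The count steps were tested on simulated data.

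The members and lists were chosen with earlier results of these data known. Named genes were the 8 with the highest mean share in each class, the 3 highest and 3 lowest ratios per pair among genes with at least 10 barcodes in the higher library, and the leading gene of each constant class with at least 30 assigned barcodes. In Jchain-high barcodes the 8 were Ighv1-81, Ighv8-12, Ighv8-8, Ighv9-1, Ighv2-9, Ighv3-6, Ighv1-19 and Ighv1-26. Alternatives kept doublets, used every barcode, asked for 2 UMIs or 80% purity of the top gene, summed UMIs, asked for 2 UMIs of Cd79a and Ms4a1, set Malat1 and ribosomal minimums (0.5% and 10%), set Jchain at 20 or asked for 20 barcodes. A planned count of promoter octamers was not analysed here. Some genes of the lists are not reported here.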

Additional observations from a re-analysis of the deposited data

How the results depend on the processing

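The Ighv1 share of B barcodes was 42.9% to 46.0% in citrate buffer, 47.9% to 50.2% in free OVA and 43.9% to 44.5% in LysoPS-OVA over 8 alternatives each. Over the same alternatives Ighv2-2 ranged from 2.54% to 3.05%, 4.06% to 5.05% and 5.28% to 6.40%, and Ighv3-2 from 0.939% to 1.63%, 1.68% to 2.30% and 7.46% to 9%. The counts of Ighv genes past 2-fold moved with the rule. LysoPS-OVA against citrate buffer (18 genes) ranged from 6 to 26 over 9 alternatives, with 6 at 2 or more UMIs of the top gene and 8 with a minimum of 20 barcodes. Free OVA against citrate buffer (8 genes) gave 13 with doublets kept, 3 with at least 2 UMIs, 16 by summed UMIs and 2 with 20 barcodes. LysoPS-OVA against free OVA (25 genes) ranged from 7 to 33, with 7 at 2 or more UMIs and 8 with 20 barcodes. Both stricter rules left fewer genes compared. Ratios with at most 3 barcodes in both libraries, or whose bound fell on the other side of 1, were not given, so the ratios cannot show whether directions are stable. Of the 133 given for single genes under alternatives, 121 stayed past 2-fold. For free OVA against citrate buffer, Ighv3-2 (2.11-fold) was 1.45-fold with doublets kept, 1.39-fold with every barcode, 1.76-fold by summed UMIs and 1.03-fold with at least 2 UMIs, and Ighv1-63 (2.18-fold) was under 2-fold with 5 alternatives, lowest at 1.63-fold by summed UMIs. With at least 2 UMIs, LysoPS-OVA against free OVA was at most 0.624-fold for Ighv1-81 and 0.52-fold for Ighv5-4 and was 12.5-fold for Ighv8-11, and against citrate buffer it was at most 0.69-fold for Ighv5-16. Other ratios moved by over 1.5 times and stayed past 2-fold: Ighv10-3 ranged from 0.0804-fold to 0.312-fold and Ighv1-83 from at least 3.18-fold to 16.7-fold (2.25 to 123.9) for LysoPS-OVA against citrate buffer, where Ighv5-16 was 0.0589-fold by summed UMIs. Against free OVA, Ighv5-4 was 0.107-fold with doublets kept and Ighv7-1 ranged from 2.67-fold to 4.52-fold, and Ighv1-72 from 3.06-fold to 4.99-fold for free OVA against citrate buffer. By summed UMIs, the Ighv1 share of LysoPS-OVA Jchain-high barcodes was 83.7%, against 40% by barcode, and 2 barcodes held most of those UMIs. All genes past 2-fold by CPM for LysoPS-OVA against citrate buffer numbered 23, and 43 with no filter on low counts. With a pseudocount of 1 CPM and 30 UMIs only, all genes numbered 363, 341 for free OVA against citrate buffer and 72 for LysoPS-OVA against free OVA, and Ighv genes 1 in the first and 4 in the last. The pseudocount of 1 CPM and the Jchain minimum of 20 gave values too. No paired analysis was possible because each feeding has 1 library, and for the same reason no library could be left out. Ighv depth limits all single-gene values, since most assignments rest on 1 UMI.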
